A study of Danio rerio with 6 samples.

Results

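The Period genes of the zebrafish retina were followed through the RNA-Seq of *pde6c* and wild-type (WT) larvae. They are *per1a* (ENSDARG00000056885), *per1b* (ENSDARG00000012499), *per2* (ENSDARG00000034503) and *per3* (ENSDARG00000010519). They were looked up by their Ensembl identifiers, and the family was chosen with earlier results of these data known. All 4 of 4 were among the 25190 genes of the count table and passed the filter on low counts that left 17242 genes for testing. The experiment compared 3 *pde6c* samples (PR1, PR2 and PR3) with 3 WT samples (WR1, WR2 and WR3) at 5 dpf. The *pde6c* larvae were homozygous for the w59 allele of a phosphodiesterase gene that cones use in phototransduction, and came from heterozygous parents. The WT larvae came from genotyped WT siblings of those parents, so that genotype and parentage cannot be told apart. Each sample was a pool of 3 retinas from 3 larvae. The authors staggered the breeding so that all retinas could be collected at the same age in hours. All larvae had been screened by an optokinetic test under a lamp and then dark-adapted for hours before dissection. The clock time of each dissection is not given in the sources used here.

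Period proteins are repressors of the circadian clock. CLOCK and BMAL proteins bind E-box elements and switch on the Period and cryptochrome genes, whose proteins enter the nucleus and block CLOCK and BMAL until they are degraded, which closes a loop of about a day. Zebrafish tissues hold their own clocks, which light can reset directly, and *per2* is the Period gene known to be induced by light in zebrafish cells, through D-box elements among others, while *per1a*, *per1b* and *per3* are known for their daily rhythm.

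Total counts lay between 20322524 and 21936191 in *pde6c* samples and between 18757605 and 22510222 in WT samples. The targeted gene could not be checked from the counts, because its span lies within that of CEP55, fragments shared by genes were left out, and it had a count of 0 in all 6 samples. In the separate table of FPKM (fragments per kilobase of transcript and per unit of depth), the level of *pde6c* was 60.1 in PR1, 140 in PR2 and 84.8 in PR3, against 445 in WR1, 655 in WR2 and 520 in WR3. The column names were followed for the genotypes of both tables. A summary of expressed genes in the study assigns the FPKM columns to the opposite genotypes, so that every direction given here rests on the column names and on *pde6c* being lower in the columns named PR. The summed level of 14 cone genes was 6223 to 8712 CPM (counts scaled to a common library size) in *pde6c* and 15100 to 16968 CPM in WT. Of the 10 tested genes, 6 were called lower and 2 higher in *pde6c* (edgeR, adjusted P-value under 0.1), where 2.29% and 1.4% of all genes tested were. *opn1mw2*, *pde6c* and *pde6ha* were at a count of 0 in all samples. The span of *opn1mw2* overlaps that of *opn1mw1*, and that of *pde6ha* overlaps 4 genes, so that these counts do not show absence of expression. For 8 rod genes the sum was 1227 to 1739 CPM in *pde6c* and 1904 to 2772 CPM in WT, and 3 of the 8 were called lower, beside the same 2.29%. In such bulk samples fewer cells of a type and less RNA per cell cannot be told apart, and the part that these shifts have in the Period values was not tested. Sums of bipolar, amacrine, horizontal, Müller glia, microglia and pigment epithelium markers overlapped between the genotypes, and those of 4 ganglion cell genes did not (239 to 244 CPM in *pde6c*, 253 to 277 CPM in WT). Of these 4 genes 0 were called, and 1 was lower without overlap, where 8.75% of all genes tested were. Overlapping sums can hide single genes. Of 5 bipolar genes, 1 was called higher in *pde6c* and 0 lower, beside the same 1.4% and 2.29%. It was *cabp5a* (log2 fold change 2.29; edgeR, adjusted P-value = 3.91e-05). Of 5 Müller glia genes 0 were called, while 1 was higher and 1 lower without overlap, as were 8.15% and 8.75% of all genes tested. The sums for 3 lens and 3 blood genes did not exceed 1.02 CPM in any sample.

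*per2* was the Period gene that separated the genotypes most. It spans chromosome 2, 48455430 to 48521197, on the minus strand of GRCz10, and no other gene of the table overlaps it. The normalized level of *per2* was 304 CPM in PR1, 86.6 CPM in PR2 and 165 CPM in PR3, against 37.9 CPM in WR1, 30.4 CPM in WR2 and 29.1 CPM in WR3. The genotypes did not overlap, and the lowest *pde6c* sample lay above the highest WT sample although the *pde6c* samples were far apart from each other. The mean was 185 ± 110 CPM in *pde6c* and 32.5 ± 4.77 CPM in WT (SD, n = 3 each). This gave a log2 fold change of 2.51 (SE 0.32), or a 5.70-fold higher level in *pde6c*, with a 95% interval of 3.54 to 9.17 (edgeR quasi-likelihood test, adjusted P-value = 0.000196 by Benjamini-Hochberg over all genes tested). The interval rests on the edgeR SE, while DESeq2 gave the same log2 fold change with an SE of 0.50. Given the SD of 0.90 among *pde6c* samples on the log2 CPM scale, the interval may be too narrow. Genes with an adjusted P-value under 0.1 were called, which was the case for 3.69% of all genes tested, and 1.4% of all genes tested were called higher in *pde6c*. Of all genes tested, 58 (0.336%) were called with a log2 fold change at or above that of *per2*. It was called again in each fit that left out a sample, with log2 fold changes of 1.97 without PR1 to 2.85 without PR2.

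*per3* was the other Period gene with a call, close to the threshold. Its span is chromosome 11, 39694894 to 39756935, on the plus strand. *per3* reached 487 CPM in PR1, 812 CPM in PR2 and 597 CPM in PR3, against 415 CPM in WR1, 442 CPM in WR2 and 410 CPM in WR3. All *pde6c* samples lay above all WT samples, by a narrow gap between PR1 and WR2. The mean was 632 ± 165 CPM in *pde6c* and 422 ± 17.0 CPM in WT (SD, n = 3 each). *per3* was thus 1.5-fold higher in *pde6c* (log2 fold change 0.58, SE 0.17), with a 95% interval of 1.17 to 1.92 (edgeR, adjusted P-value = 0.0932). The call was lost in 5 of the 6 fits with 1 sample left out, those without PR2, PR3 or any WT sample (edgeR, adjusted P-values of 0.177 to 0.464). Without PR2, the highest sample, the log2 fold change was 0.36 and the adjusted P-value 0.464 (edgeR), and without PR1, the lowest *pde6c* sample, it was 0.75 with an adjusted P-value of 0.0261.

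*per1a* and *per1b*, a duplicated pair that corresponds to the single PER1 gene of mammals, did not pass the test. *per1a* lies on chromosome 10, 22841347 to 22862023, on the minus strand, and had 146, 155 and 119 CPM in PR1, PR2 and PR3, against 228, 193 and 105 CPM in WR1, WR2 and WR3. The WT samples enclosed all *pde6c* samples, with WR1 and WR2 above them and WR3 below. The log2 fold change of *per1a* was -0.33 (SE 0.23), with a 95% interval of -0.80 to 0.15 (edgeR, adjusted P-value = 0.648). Its size depended on single WT samples and was -0.58 without WR3 and -0.08 without WR1.

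*per1b* lies on chromosome 7, 50547395 to 50571221, on the plus strand. It had 199, 200 and 151 CPM in PR1, PR2 and PR3, against 196, 159 and 152 CPM in WR1, WR2 and WR3. The genotypes overlapped over nearly their whole range. The log2 fold change was 0.11 (SE 0.17), with a 95% interval of -0.24 to 0.47 (edgeR, adjusted P-value = 0.869). As a fold, the 95% interval was 0.573 to 1.11 for *per1a* and 0.848 to 1.38 for *per1b*. Neither interval, as built from the edgeR SE, reached up to the 1.5-fold estimate of *per3*. The interval of *per1a* held a fall to 0.573 of the WT level. With an SD of 0.59 among WT samples on the log2 CPM scale, the interval of *per1a* may be too narrow. These intervals therefore set no firm bound. The interval of *per3*, 1.17 to 1.92, overlapped that of *per1b* and not that of *per1a*. It may also be too narrow, with an SD of 0.37 among *pde6c* samples on the log2 CPM scale. Separate intervals are no test between genes. The ratio of *per3* to *per1a* within each sample overlapped between genotypes (two-sided exact permutation test, p = 0.2). Of the 4 Period genes, 2 thus had no overlap between genotypes in CPM, both higher in *pde6c*, where 16.9% of all genes tested had none and 8.15% had none and were higher. No Period gene shares its span with another gene of the table, so that no fragments were lost to an overlap.

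**Figure D1:**
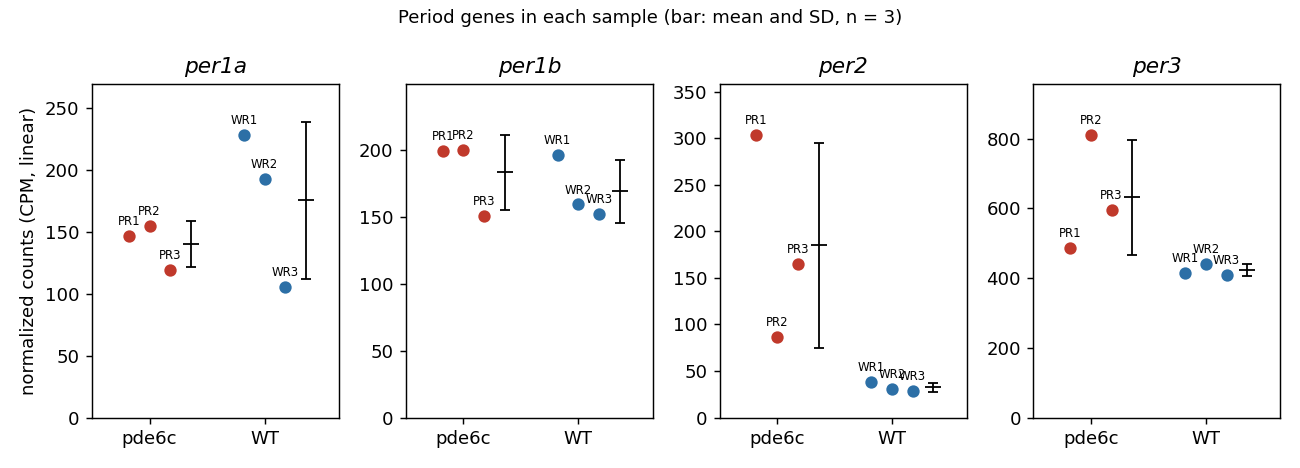
Normalized counts (CPM, linear axis from 0) of the 4 Period genes in each sample, with *pde6c* samples in red and WT samples in blue, and bars for the mean and SD of 3 samples. *per2* lies between 86.6 and 304 CPM in *pde6c* and between 29.1 and 37.9 CPM in WT, *per3* is separated by a narrow gap, and *per1a* and *per1b* overlap.

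The genes can be set against each other only per length of transcript, for which the FPKM table was used. *per3* was the highest Period gene in both genotypes, with 85.8, 129 and 111 FPKM in PR1, PR2 and PR3, against 68.7, 84.3 and 69.5 FPKM in WR1, WR2 and WR3. In *pde6c* samples it was followed by *per2* (44.5 ± 23.1 FPKM), *per1b* (42.5 ± 3.11 FPKM) and *per1a* (37.4 ± 1.17 FPKM) (SD, n = 3). *per2* overlapped *per1a* and *per1b* there, which were themselves separated by a gap from 38.7 to 40.6 FPKM. In WT samples the order below *per3* was *per1a* (42.7 ± 16.4 FPKM), *per1b* (34.6 ± 3.53 FPKM) and then *per2* (5.87 ± 2.06 FPKM). *per1a* and *per1b* overlapped in WT, whereas *per2* stood below every other Period value of that genotype.

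The FPKM of *per2* were 66.8 in PR1, 20.6 in PR2 and 46.1 in PR3, against 8.04, 5.65 and 3.93 FPKM in WR1, WR2 and WR3. On the log2(FPKM + 1) scale the difference was 2.62, and limma gave an adjusted P-value of 0.0375, where 1.3% of the genes in that test were called and 0.507% were called higher. *per3* differed by 0.53 on the same scale and did not pass (limma, adjusted P-value = 0.423). *per1b* was the gene for which the tables differed in the overlap of samples. It had 40.6, 46.1 and 40.9 FPKM in PR1, PR2 and PR3, against 38.5, 33.6 and 31.6 FPKM in WR1, WR2 and WR3, without overlap, where 7.3% of the genes in that test were higher without overlap. It differed by 0.29 on the log2(FPKM + 1) scale and did not pass (limma, adjusted P-value = 0.678), and the two-sided exact permutation test gave p = 0.1, the smallest that 3 against 3 samples allow. *per1a*, at 36.8, 38.7 and 36.6 FPKM in *pde6c* samples, against 53.2, 51.0 and 23.8 FPKM in WT samples, overlapped here as in the counts.

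**Figure D2:**
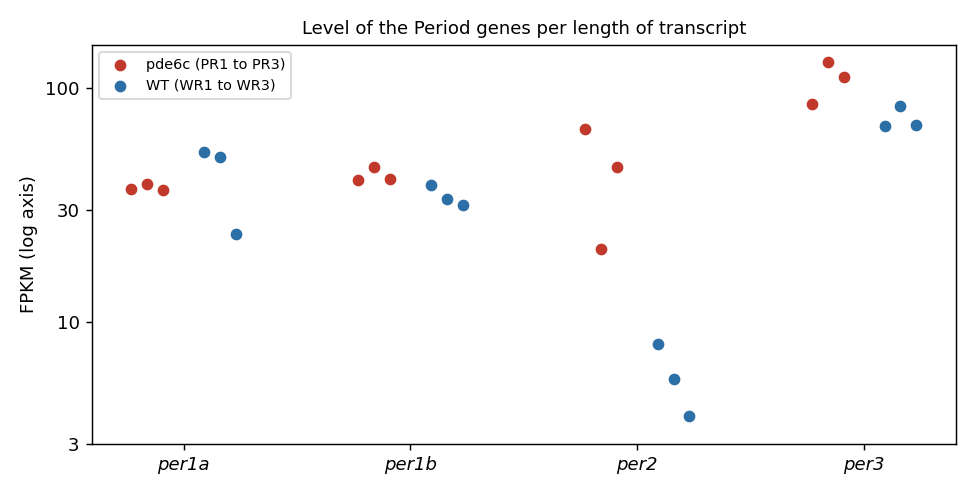
FPKM of the 4 Period genes in each sample on a log axis, with *pde6c* samples in red and WT samples in blue, in the order of their replicate numbers. *per3* is the highest gene in both genotypes, and *per2* is at 20.6 to 66.8 FPKM in *pde6c* and at 3.93 to 8.04 FPKM in WT, below all other Period genes of WT.

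Whether one Period gene differed more between genotypes than another was asked with the log2 ratio of a pair within each sample, over 6 pairs. The ratio of *per2* to *per1a* was 0.23 ± 0.97 in *pde6c* and -2.37 ± 0.45 in WT, a difference of 2.60. The ratio of *per2* to *per1b* was -0.15 ± 0.94 in *pde6c* and -2.38 ± 0.01 in WT, a difference of 2.22 (SD on the log2 CPM scale, n = 3). On this scale the *per2* to *per1b* ratio was thus nearly the same in all WT samples and spread widely in *pde6c* samples. On the log2(FPKM + 1) scale the SD of the same ratio was 0.30 in WT and 0.94 in *pde6c*. The ratio of *per3* to *per2* was 1.92 ± 1.27 in *pde6c* and 3.71 ± 0.22 in WT, a difference of -1.79. These 3 ratios, each with *per2*, did not overlap between genotypes, and each had p = 0.1 in a two-sided exact permutation test, the smallest possible, or 0.2 after Benjamini-Hochberg adjustment over the pairs. The 3 pairs without *per2* overlapped, with differences of 0.81 for *per3* to *per1a*, 0.44 for *per3* to *per1b* and 0.37 for *per1b* to *per1a*, and exact p of 0.2, 0.3 and 0.4 (0.3, 0.36 and 0.4 after adjustment). No pair could reach p under 0.05 in this design. Single samples moved some differences by more than 1.5 times. Without PR1 the difference was -1.17 for *per3* to *per2* and 0.68 for *per3* to *per1b*, and for *per1b* to *per1a* it was 0.23 without WR2 and 0.63 without WR3.

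Clock genes move with the time of day, and the Period genes differed between replicates of a genotype as well. The highest *pde6c* sample of *per2* was 3.51 times the lowest, against 1.30 times among WT samples, where the median gene had ratios of 1.57 and 1.58. The pooled SD of *per2* within a genotype was 0.66 on the log2 CPM scale, and 99.8% of the 1825 genes of like level had a smaller one. For *per1a* the pooled SD was 0.44, above 98.6% of 1195 genes of like level, and it came from WT, with an SD of 0.20 among *pde6c* samples and 0.59 among WT samples. *per3* had a pooled SD of 0.27, with 0.37 in *pde6c* and 0.06 in WT. *per1b* was close to ordinary, at 0.22 against a median of 0.19 for genes of like level. On the log2(FPKM + 1) scale the shares of genes of like level with a smaller spread were lower. They were 94.9% for *per2*, 85.1% for *per1a*, 51.9% for *per3* and 7.66% for *per1b*.

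The samples that stood out were not the same for each Period gene. From the mean of its genotype, *per2* deviated by 0.90 in PR1, -0.91 in PR2 and 0.02 in PR3 (log2 CPM), and *per3* by -0.34, 0.39 and -0.05. The 2 *pde6c* samples at the extremes of *per2* were thus at the opposite extremes of *per3*. *per1a* deviated by 0.45 in WR1, 0.21 in WR2 and -0.66 in WR3. WR3 deviated in other genes of the clock lists as well, in both directions. Besides clock components, these lists hold genes of light sensing, clock output and DNA damage, all counted here as clock genes. Of the 53 clock genes tested, Period genes included, the 3 lowest deviations in WR3 were -1.30 for *cry-dash*, a gene of few counts, -0.74 for *aanat2* and -0.72 for *tefa*, and the 3 highest were 0.81 for *rorca*, 0.70 for *opn4a* and 0.67 for *rorcb*, named here by their values. Over these 53 genes, PR1 was the highest *pde6c* sample for 31 (58.5%) and PR2 the lowest for 26 (49.1%), where the shares over all genes tested were 31.4% and 34.5%. WR1 was the highest WT sample for 26 (49.1%) and WR3 the lowest for 26 (49.1%), where the shares over all genes tested were 34.2% and 32.3%. PR1 had 21936191 counts and the highest TMM scaling factor of the 6 samples, 1.06, and WR3 had 21389932 counts and a factor of 0.971. The part of time of day or of depth in these deviations was not tested.

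**Figure D3:**
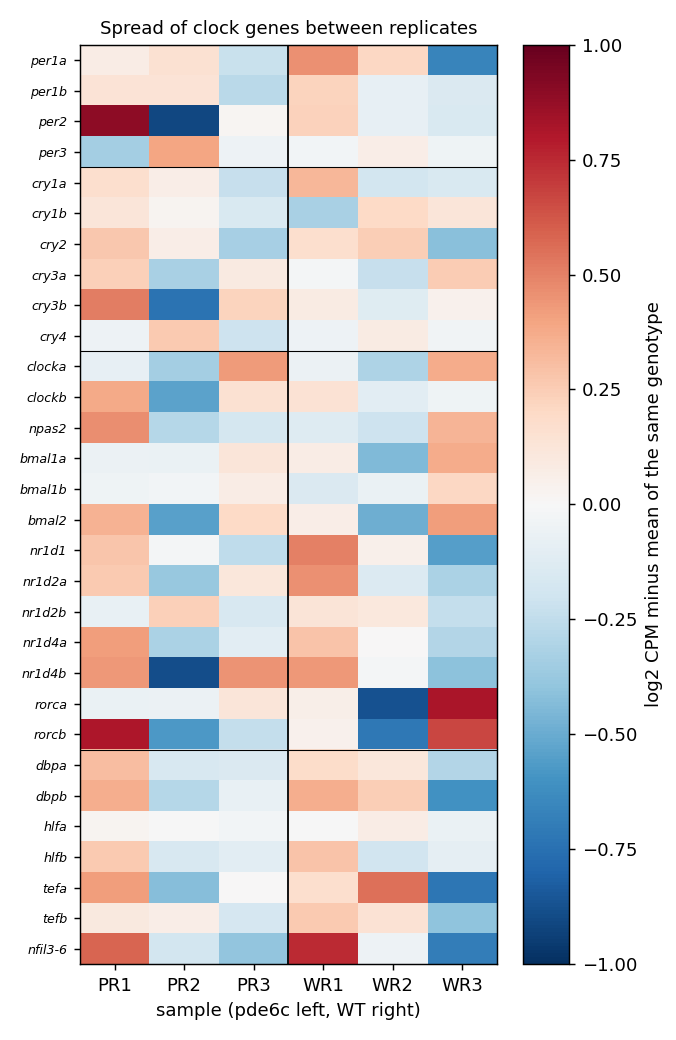
Deviation of each sample from the mean of its own genotype in log2 CPM (colour, red above and blue below) for the 4 Period genes, the cryptochromes, the clock activators, most of their regulators and most D-box factors, with the 3 *pde6c* samples left of the 3 WT samples. *per2* runs from 0.90 in PR1 to -0.91 in PR2, *per3* has the opposite signs there, and *per1a* is lowest in WR3 at -0.66.

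*per2* is 1 of a group of genes that light induces in zebrafish cells, and the other 6 of the list were measured next to it. Of these, 2 were called higher in *pde6c* and none lower, where 1.4% of all genes tested were called higher. *cry1a*, which encodes a light-induced cryptochrome that represses CLOCK and BMAL, had 95.1, 88.5 and 72.1 CPM in PR1, PR2 and PR3, against 42.4, 29.5 and 30.2 CPM in WR1, WR2 and WR3, a log2 fold change of 1.32 (SE 0.21; edgeR, adjusted P-value = 0.00127). *ddb2*, whose product binds ultraviolet damage in DNA, had 7.98, 7.96 and 7.91 CPM in *pde6c*, against 1.5, 0.281 and 1.40 CPM in WT, a log2 fold change of 2.89 (SE 0.61; edgeR, adjusted P-value = 0.0128). Both were called in all 6 fits with 1 sample left out, as *per2* was. On the FPKM table *cry1a* was called (limma, adjusted P-value = 0.0315), and *ddb2* was not, with a difference of 1.60 on the log2(FPKM + 1) scale (limma, adjusted P-value = 0.209). The *pde6c* samples differed little in *ddb2* and *cry1a*, unlike in *per2*. *ddb2* had few counts in WT, with 34 in WR1, 5 in WR2 and 29 in WR3. Its WT samples deviated from their mean by 0.73, -1.36 and 0.63 (log2 CPM).

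Of the remaining light-induced genes, *cry-dash*, a member of the photolyase and cryptochrome family, had 13.3, 7.44 and 13.8 CPM in *pde6c*, against 5.65, 3.94 and 1.16 CPM in WT, which did not overlap and did not pass (edgeR, log2 fold change 1.68, adjusted P-value = 0.122). *cry5*, a photolyase named here after its values were seen, had 5.40, 2.01 and 4.32 CPM in *pde6c*, against 1.72, 0.394 and 1.44 CPM in WT (edgeR, log2 fold change 1.71, adjusted P-value = 0.320), and its span overlaps that of FOXRED1. *xpc*, a sensor of damaged DNA, and *tefa*, a D-box factor, overlapped between genotypes, with log2 fold changes of 0.84 and -0.01. The median log2 fold change of the 6 genes was 1.5, beside 0.00 for all genes tested. Without overlap and higher in *pde6c* were 4 of the 6, beside the 8.15% of all genes tested. This list, like the other clock lists, was chosen with earlier results of these data known. Its median and shares are therefore a description and no independent support.

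**Figure D4:**
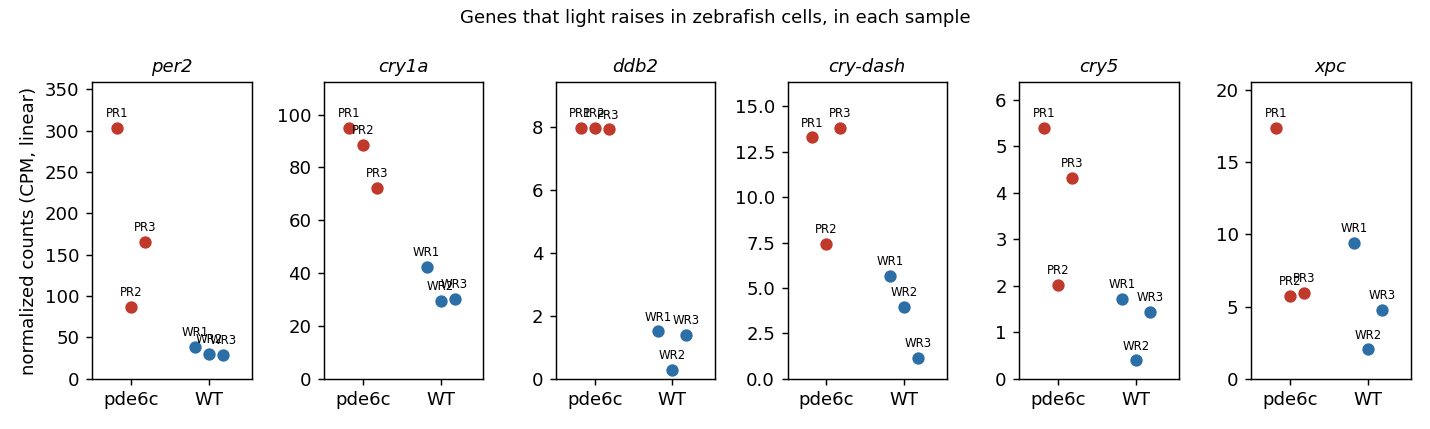
Normalized counts (CPM, linear axes from 0, each panel with its own scale) of *per2* and 5 other genes that light induces in zebrafish cells, with *pde6c* samples in red and WT samples in blue. *per2*, *cry1a*, *ddb2*, *cry-dash* and *cry5* do not overlap between genotypes, and *xpc* does.

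Around the Period genes, 49 other genes of the clock lists, not all of them clock components, passed the filter on low counts. Of these, 3 were called higher in *pde6c* and 7 lower, where 1.4% and 2.29% of all genes tested were called so. The 6 cryptochromes, the partners of Period proteins, had the 1 call of *cry1a* given above, and *cry2*, *cry3a* and *cry3b* had log2 fold changes of -0.17, -0.04 and 0.57 without passing the test. Of 15 genes for clock activators and their regulators, 6 were lower in *pde6c* and none higher, with a median log2 fold change of -0.50. These were *bmal1b* (-0.80) and *npas2* (-0.97), whose products pair to drive E-box genes such as those of the Period family, *nr1d2a* (-1.02), *nr1d4a* (-1.76) and *nr1d4b* (-1.14), which encode receptors of the family that represses *bmal* genes, and *rorcb* (-1.69), of the family that activates them. *nr1d4a* had 131, 78.6 and 91.4 CPM in PR1, PR2 and PR3, against 409, 337 and 275 CPM in WR1, WR2 and WR3 (edgeR, adjusted P-value = 6.17e-05). Of the members without a call, those with the highest counts were *roraa*, *nr1d1* and *rorb*, at -0.27, -0.56 and 0.07. Counts over whole gene spans do not rank these genes by abundance. Lower without overlap between genotypes were 7 of the 15, where 8.75% of all genes tested were so.

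Leaving out WR3, the lowest WT sample for *per1a* and the highest for *bmal1b*, *npas2* and *rorcb*, ended the calls of *bmal1b* (edgeR, adjusted P-value = 0.118) and *npas2* (0.191), and that of *npas2* was also lost without PR2 (0.139) or PR3 (0.152). *nr1d2a* and *nr1d4b* lost theirs without WR1 (0.101 and 0.174), while *nr1d4a* and *rorcb* were called in all 6 such fits. On the FPKM table, limma on log2(FPKM + 1) called *nr1d2a* (adjusted P-value = 0.0789) and *nr1d4a* (0.0873) and did not call *rorcb* (0.281), *nr1d4b* (0.320), *npas2* (0.464) or *bmal1b* (0.587).

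The genes that act on Period proteins after translation had no call. Of the 5 tested for kinases and turnover, edgeR called 0, DESeq2 called 0 and 0 had an unadjusted p under 0.05. Casein kinases phosphorylate Period proteins and mark them for degradation, and their genes *csnk1da* and *csnk1db* had log2 fold changes of 0.09 and 0.11. *fbxw11b*, which encodes an F-box protein of the ligase that takes up Period proteins, had 0.13. The 4 other E-box feedback genes, among them *bhlhe40* (-0.04), *bhlhe41* (-0.26) and *ciarta* (0.03), likewise had 0 calls by edgeR and 0 by DESeq2, and 0 had an unadjusted p under 0.05. Of 8 D-box factors, edgeR called 0, with 2 at an unadjusted p under 0.05, *hlfa* and *hlfb*. DESeq2 called 1, *hlfb* (adjusted P-value = 0.0646), named here by its values. Its log2 fold change was -0.66 by edgeR, and its difference on the log2(FPKM + 1) scale was -0.05. *hlfa*, *dbpb* and *dbpa* had log2 fold changes of -0.36, -0.41 and -0.36. As edgeR called 3.69% of all genes tested, 0 calls in lists of 5, 4 and 8 genes are near that share and say little about these genes.

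Among 7 genes of clock output and non-visual light sensing, 2 were called, where 3.69% of all genes tested were. The 2 calls fell on successive steps of melatonin synthesis and had opposite signs. *aanat2* was higher in *pde6c* (log2 fold change 1.52; edgeR, adjusted P-value = 0.0548), a call lost in 4 of the 6 fits with 1 sample left out, those without PR1, PR3, WR2 or WR3, with adjusted P-values of up to 0.200. *asmt* was lower (-1.57; edgeR, adjusted P-value = 0.00629) and was called in all 6. Of the genes of this list without a call, the 3 with the highest counts were the melanopsin genes *opn4b* and *opn4xb*, with log2 fold changes of 0.11 and -0.22, and *asmt2*, with -0.65. On the FPKM table *aanat2* was not called (limma, adjusted P-value = 0.131) and *asmt* was (0.0513).

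**Figure D5:**
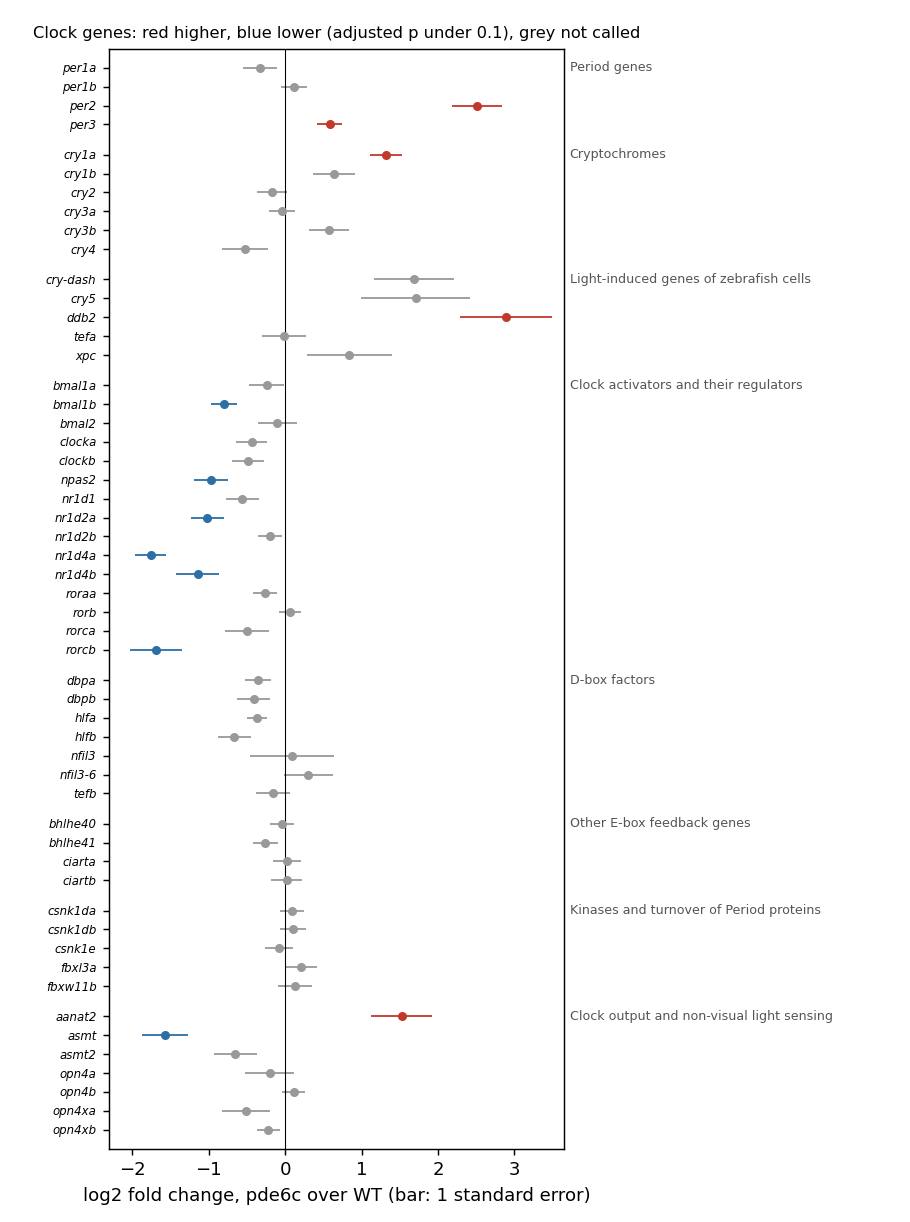
Log2 fold change of *pde6c* over WT with 1 standard error for the 4 Period genes and 49 other clock genes, grouped by role (*cry1a* stands with the cryptochromes), in red where called higher, blue where called lower and grey where not called. *per2* lies at 2.51 and *per3* at 0.58, light-induced genes lie mostly right of 0, and 6 of 15 genes for activators and their regulators are called left of 0.

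For each Period gene, the annotated genes with the most similar values over the 6 samples were taken from 9996 genes of sufficient level, by Pearson's r of log2 CPM. With so few samples, which also share a genotype in groups of 3, high values of r arise easily and are given as a description. *per1a* was most like *tefb* (r = 0.991), a D-box factor, followed by ZDHHC13 (0.987) and PDCL (0.977), and 8 genes had r above 0.95. *per1b* was most like IKZF5 (0.990), *znf346* (0.985) and *homeza* (0.983). *per2* was most like CRLF3 (0.995), *sobpb* (0.982) and CTSB (0.981), none of which was called between the genotypes. *per3* was most like PHYHIPL (0.997), MRTFA (0.994) and LAP3 (0.991), and had the most genes above 0.95, with 40. These names depended in part on the measure. With deviations from the mean of each genotype, 1 of the 3 genes named for *per1a*, 0 for *per1b*, 0 for *per2* and 1 for *per3* were among the first 3. By rank correlation 0, 0, 1 and 1 were, but genes tied at the highest value were ordered by identifier. ZDHHC13, *homeza*, *sobpb*, CTSB, PHYHIPL, MRTFA and LAP3 had a rank correlation of 1, so that for them this overlap does not show a change.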

How the data were processed

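Reads of the 6 samples had been aligned by the authors with STAR 2.5.3a to GRCz10 (Ensembl release 89). The authors deposited counts per gene from featureCounts 1.5.2, which the file header shows were taken over whole gene spans, introns included, without strand, with fragments of several genes or places left out. A second deposited table holds the FPKM of each gene, estimated with Cufflinks 2.2.1. The RNA had been amplified before sequencing, so that reads are not independent molecules. Genotypes came from the labels and column names. Symbols came from a table of Ensembl identifiers (22595 of 25190 matched), and duplicated genes were told apart by chromosome in RefSeq.

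Counts were analysed in R 4.3.3 with edgeR 4.0.16 (filterByExpr with a minimum count of 10, TMM, glmQLFit and glmQLFTest on genotype alone, Benjamini-Hochberg over 17242 genes, called under 0.1). Standard errors were derived from the F statistic, as the size of the log2 fold change over the root of F. The 95% intervals were built from these standard errors. CPM are scaled by TMM, and log2 CPM used a prior count of 2. On log2(FPKM + 1), limma 3.58.1 (with trend) was run on genes of at least 1 FPKM in at least 3 samples. A count of 3 equals 0.133 to 0.160 CPM. Genes of like level lay within 0.5 log2 CPM. The code was tested on simulated data.

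The Period genes, clock lists and tests were chosen with earlier results of these data known. Named were the Period genes, *pde6c*, the genes of each clock list that passed the test, up to 3 others per clock list with the highest counts, and the 3 most similar genes. Genes of the cell type lists that passed were counted, and most were not named. *cry5*, *rorca*, *opn4a*, *hlfb* and, in the marker check, *cabp5a* and genes at 0 were added. The 72 listed clock symbols, several of them names of the same gene, gave 56 identifiers. Without a match were *aanat1*, *exorh*, *opn4.1*, *nfil3-2*, *btrc* and *fbxl21*, which are not used here. Alternatives were DESeq2 1.42.0 (test and size factors), other filters, a replicate block, a threshold of 0.05, each sample left out, and FPKM.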

Additional observations from a re-analysis of the deposited data

How the results depend on the processing

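Every Period gene kept its direction under all alternatives run. *per2* lost its call only with limma on log2(FPKM + 1) without a filter on low values (log2 difference 2.62, adjusted P-value = 0.180), and its log2 fold change was 1.97 to 2.85 with 1 sample left out. *per3* lost its call with edgeR on DESeq2 size factors (log2 fold change 0.59, adjusted P-value = 0.102), at a threshold of 0.05 (0.58), and with limma on log2(FPKM + 1) (0.53), with a pseudocount of 0.1 (0.54) and without a filter (0.53). It was 0.36 to 0.75 with 1 sample left out, and DESeq2 called it (adjusted P-value = 0.0487). The range with 1 sample left out was -0.58 to -0.08 for *per1a* and 0.05 to 0.25 for *per1b*, uncalled throughout. The spread of *per1b* within a genotype was 0.12 on the log2(FPKM + 1) scale, in place of 0.22. Of all genes, 636 were called, 1081 by DESeq2, 205, 181 and 64 by limma on FPKM (pseudocount 1, pseudocount 0.1, no filter), and 414 to 537 with 1 sample left out. Of the 49 clock genes, 10 were called, and 8 to 10 with 1 sample left out. The same limma fits called 4 of 52, 3 of 52 and 0 of 54 clock genes. For the last, 12 of the 54 had an unadjusted p under 0.05. The share of all genes under that limit was not taken, so that this count says nothing about the list. The cause of these changes was not tested. The labels do not say that same-numbered samples were paired, and the deviations of same-numbered samples correlated by only 0.09, 0.04 and 0.04. Although 6 of 6 samples correlated best with their own number, these 6 are not independent. Each correlation serves a sample of either genotype, and the deviations within a genotype sum to 0. With the replicate block, 984 genes were called, 15 of them clock genes, and *per3* stayed called (0.55, adjusted P-value = 0.0126). With 3 pools a genotype, exact tests of single values cannot go below p = 0.1.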
